A study of Mus musculus with 8 samples.

Results

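The L1Md subfamilies are the mouse LINE-1 (L1) retrotransposons whose repeat annotation carries the name L1Md. They were chosen by name and family, with earlier results of these data known. A row of the count files was taken when its family was L1 and its name began with L1Md. This gave 6 subfamilies, L1Md_A, L1Md_F, L1Md_F2, L1Md_F3, L1Md_Gf and L1Md_T, out of 133 L1 subfamilies and 1153 repeat subfamilies in all. The other 127 L1 subfamilies are called older L1 below. Each row sums the counts of all annotated copies of a subfamily over the whole mouse genome (GRCm38/mm10), so no single coordinate belongs to a value, and copies inside introns or downstream of other promoters are pooled with copies that start their own transcript.

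Poly(A) RNA was sequenced from the #33-6 Setdb1 conditional KO line of mouse embryonic stem cells (mESCs), which stands for 1 line carrying the conditional allele in all conditions, grown with LIF on gelatin. WT mESCs were the untreated line. UNC0642-treated mESCs received 2 µM UNC0642, an inhibitor of the H3K9 methyltransferases G9a and GLP, for 3 days. Setdb1 KO mESCs received 800 nM 4-OHT, which triggers the deletion, for 5 days, and UNC0642-treated Setdb1 KO mESCs are labelled as 800 nM 4-OHT for 2 days followed by 2 µM UNC0642 for 3 days. Each condition had 2 replicates, and no control given 4-OHT or vehicle alone was analysed here, so 4-OHT itself and the loss of SETDB1 cannot be told apart. The labels do not say how the cultures of the replicates were separated, so p-values measure the spread between these libraries, which may be partly technical.

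L1 elements are autonomous retrotransposons that encode an RNA-binding protein (ORF1p) and an endonuclease with reverse transcriptase (ORF2p). Their mouse promoters are built of tandem monomers, and the monomer type gives the A, T, Gf and F names. The A, T (also called Tf) and Gf types include the copies that still move in the mouse genome, whereas F types are generally regarded as older. The age of the copies was not measured here. In mESCs and germ cells, young L1 copies are known to be held silent by H3K9 methylation, the HUSH complex and DNA methylation.

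Libraries held between 11702590 and 26807807 counts, and repeat subfamilies took between 2.77% and 17.1% of them. Setdb1 (GRCm38 chromosome 3, 95323525 to 95357202, minus strand), the targeted gene, stood at 166 and 140 CPM (counts scaled to a common library total) in WT mESCs, 122 and 104 CPM with UNC0642, 41.7 and 56.5 CPM in Setdb1 KO mESCs, and 49.5 and 35.3 CPM with both treatments. All 4 libraries given 4-OHT were below all 4 others. The log2 fold change against WT mESCs was -1.59 (SE 0.44) in Setdb1 KO mESCs and did not pass edgeR's quasi-likelihood test (adjusted p = 0.181), but passed with the replicate number as a block (adjusted p = 0.0164). The 9 mESC markers examined (such as Pou5f1 and Nanog) summed to between 3525 and 6725 CPM in every library, and none of them was called against WT mESCs by edgeR's quasi-likelihood test (0 at an unadjusted p under 0.05).

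L1Md_T was the most counted member in every library. It gave 7385 and 15607 counts in the 2 replicates of WT mESCs, 61152 and 53099 with UNC0642, 425121 and 91989 in Setdb1 KO mESCs, and 355606 and 368676 with both treatments. As a share of all counts of the library, these were 0.0631% and 0.0621%, 0.269% and 0.230%, 1.59% and 0.560%, and 2.99% and 1.404%. The conditions did not overlap, except that replicate 2 of the UNC0642-treated Setdb1 KO mESCs lay below replicate 1 of the Setdb1 KO mESCs. Thus in 1 library of poly(A) RNA almost 3% of all counts came from this subfamily, against less than 0.1% in both WT libraries.

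L1Md_Gf, the other member with the steepest differences, was the least counted in WT mESCs, with 188 and 453 counts. UNC0642 gave 1969 and 1739 counts, the deletion 11395 and 2626, and both treatments 10381 and 11743. Its share of all counts was 0.00161% (95% Wilson interval 0.00139 to 0.00185) and 0.00180% (0.00164 to 0.00198) in WT mESCs, 0.00867% and 0.00752% with UNC0642, 0.0425% and 0.0160% in Setdb1 KO mESCs, and 0.0872% and 0.0447% with both. These intervals cover counting error only. They overlapped between the replicates of WT mESCs, whereas the replicates of each other condition lay apart by more than counting error. Every library of a treated condition lay above both libraries of WT mESCs.

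L1Md_A had 1758 and 2607 counts in WT mESCs, 8813 and 7394 with UNC0642, 56199 and 17364 in Setdb1 KO mESCs, and 49256 and 47845 with both treatments. The corresponding shares were 0.0150% and 0.0104%, 0.0388% and 0.0320%, 0.210% and 0.106%, and 0.414% and 0.182%. As with L1Md_T, the Setdb1 KO libraries without and with UNC0642 overlapped, and the other conditions were separate.

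Among the F-type members, L1Md_F2 was the second most counted in WT mESCs (4904 and 7263 counts). Its share of all counts was 0.0419% and 0.0289% in WT mESCs, 0.0733% and 0.0499% with UNC0642, 0.227% and 0.110% in Setdb1 KO mESCs, and 0.351% and 0.182% with both treatments. L1Md_F3 went from 0.0115% and 0.00759% in WT mESCs to 0.0220% and 0.0156% with UNC0642, 0.0842% and 0.0462% in Setdb1 KO mESCs, and 0.110% and 0.0637% with both. For L1Md_F the shares were 0.00341% and 0.00234%, 0.00737% and 0.00428%, 0.0268% and 0.0145%, and 0.0369% and 0.0215%. In all F types the libraries of both Setdb1 KO conditions lay above those of the conditions with SETDB1. How many of all features separate the conditions in such ways was counted only against WT mESCs, as given below.

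**Figure D1:**
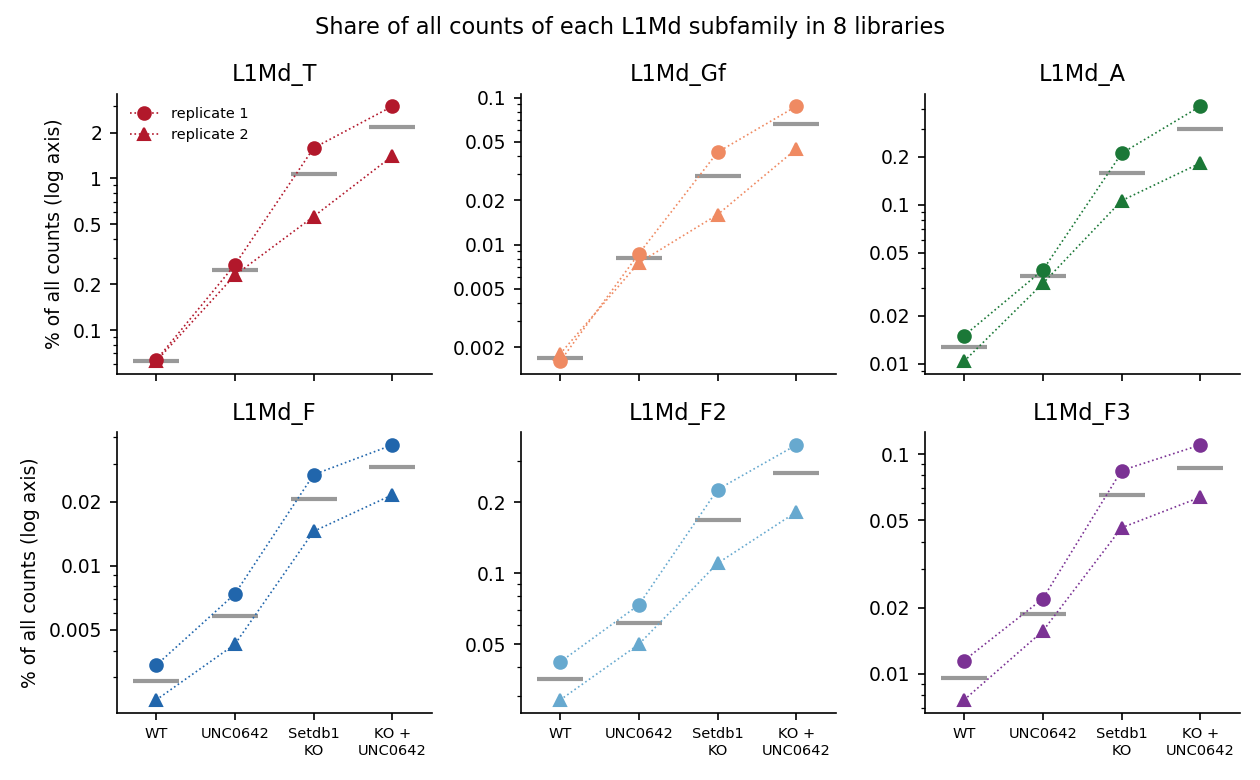
Share of all counts (%, log axis, scaled per panel) of each L1Md subfamily in the 8 libraries, by condition. Circles are replicate 1, triangles replicate 2, dotted lines join libraries of the same replicate number and grey bars are condition means. In every panel both lines climb from WT through UNC0642 and Setdb1 KO to both treatments, and from Setdb1 KO onward replicate 1 lies above replicate 2.

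Summed over the 6 members, L1Md took 0.1248% ± 0.0165 of all counts in WT mESCs, 0.379% ± 0.0568 with UNC0642, 1.51% ± 0.935 in Setdb1 KO mESCs and 2.94% ± 1.48 with both treatments (mean ± SD, n = 2 each). Relative to WT mESCs of the same replicate number, the sum was 3.07-fold and 3.00-fold with UNC0642, 15.9-fold and 7.54-fold in Setdb1 KO mESCs, and 29.2-fold and 16.8-fold with both. A share depends on the other counts of the library, and more L1 RNA per cell cannot be told apart from more cells that express L1 in bulk RNA.

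Among these counts the mix of subfamilies differed between conditions. L1Md_T made up 46.2% and 54.9% of L1Md counts in WT mESCs, 64.2% and 67.8% with UNC0642, 72.9% and 65.7% in Setdb1 KO mESCs, and 74.9% and 74.0% with both treatments. L1Md_F2 went the other way, with 30.7% and 25.6% in WT mESCs, 17.5% and 14.7% with UNC0642, 10.4% and 12.9% in Setdb1 KO mESCs, and 8.81% and 9.60% with both. The share of L1Md_A stayed between 9.17% and 12.4% in all 8 libraries. L1Md_Gf held 1.18% and 1.59% in WT mESCs and between 1.88% and 2.36% elsewhere. These shares compare counts, not levels per length, since element lengths were not used here.

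**Figure D2:**
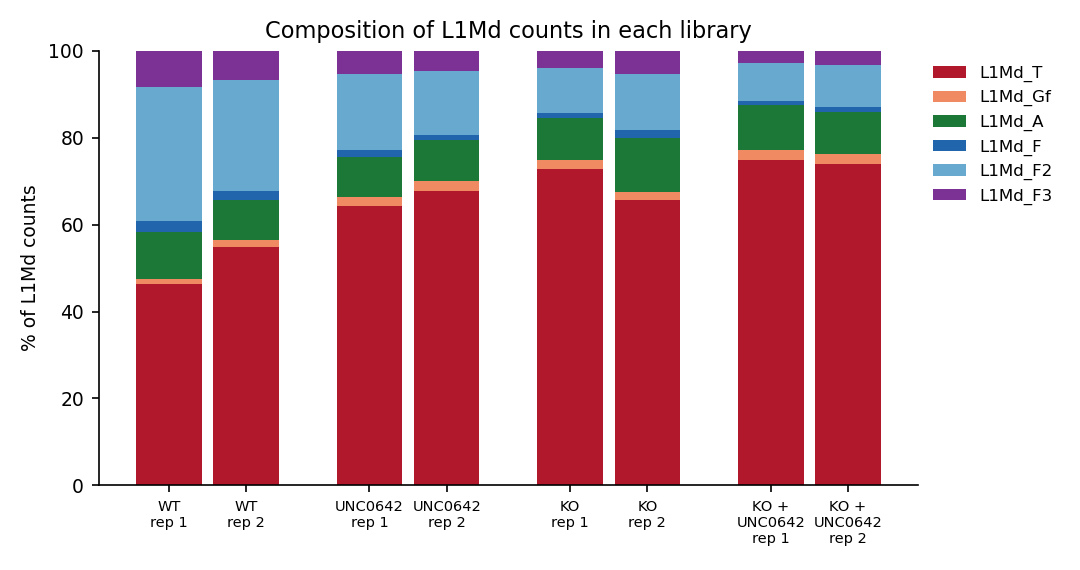
Composition of the L1Md counts of each library (stacked bars, % of L1Md counts, from 0 to 100). The L1Md_T part widens from 46.2% and 54.9% in WT to 74.9% and 74.0% with both treatments, and the L1Md_F2 part narrows.

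The same shift can be written as ratios of these counts within a library. Like the percentages above, they do not depend on scaling between libraries, so they restate the shift and are no further evidence for it. For each count of L1Md_F2 there were 1.51 and 2.15 counts of L1Md_T in WT mESCs, 3.67 and 4.61 with UNC0642, 6.99 and 5.08 in Setdb1 KO mESCs, and 8.51 and 7.71 with both. Counts of L1Md_A per count of L1Md_F2 were 0.358 and 0.359 in WT mESCs, 0.529 and 0.641 with UNC0642, 0.924 and 0.959 in Setdb1 KO mESCs, and 1.18 and 1.00 with both. In these 2 ratios the 4 conditions did not overlap. How often ratios of other features separate the 4 conditions in this way was not counted. L1Md_Gf per L1Md_F was 0.471 and 0.769 in WT mESCs, 1.18 and 1.76 with UNC0642, 1.59 and 1.10 in Setdb1 KO mESCs, and 2.37 and 2.08 with both, so here UNC0642 and Setdb1 KO mESCs overlapped. By contrast, L1Md_T per L1Md_A was 4.20 and 5.99 in WT mESCs, 6.94 and 7.18 with UNC0642, 7.56 and 5.30 in Setdb1 KO mESCs, and 7.22 and 7.71 with both, so Setdb1 KO mESCs overlapped WT mESCs.

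The first comparison asks what inhibition of G9a/GLP did to L1Md RNA in cells that have SETDB1. All members had a positive log2 fold change, from 0.80 (SE 0.67) for L1Md_F2 to 1.99 (SE 0.78) for L1Md_T and 2.24 (SE 0.66) for L1Md_Gf. So did 784 of the 932 repeat subfamilies and 7804 of the 16245 features tested. After adjustment over all 16245 features tested, however, 0 members were called in edgeR's quasi-likelihood test (adjusted p under 0.05 and more than 2-fold, 0% of all features called, smallest adjusted p = 0.708), and 2 (L1Md_Gf and L1Md_T) had an unadjusted p under 0.05. With the replicate block 0 members were called as well (0.166% of features, smallest adjusted p = 0.101). DESeq2 called 0 with all 8 libraries (0.739% of features), and L1Md_Gf and L1Md_T when only the 4 libraries compared were fitted (0.616%). On TMM-normalized CPM, 5 members had both libraries above both WT libraries (13.7% of all features did), the exception being L1Md_F2.

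The second comparison concerns the deletion of Setdb1, which encodes an H3K9 methyltransferase. Log2 fold changes against WT mESCs were 4.26 (SE 0.72) for L1Md_Gf, 4.26 (SE 0.86) for L1Md_T, 3.75 (SE 0.74) for L1Md_A, 2.96 (SE 0.65) for L1Md_F, 2.89 (SE 0.65) for L1Md_F3 and 2.37 (SE 0.70) for L1Md_F2. Without a replicate term only L1Md_Gf was called in edgeR's quasi-likelihood test (adjusted p = 0.0291, 1.11% of all features called), while L1Md_A and L1Md_T had adjusted p = 0.0533 and 0.0592. With the replicate number as a block all 6 were called (3.77% of features), at adjusted p between 0.000643 and 0.00227, and DESeq2 also called 6, with all 8 libraries (3.32% of features) or only the 4 compared (2.93%). Both libraries of all 6 members lay above both WT libraries, as for 17.5% of features. The count without a block fell to 0 when WT replicate 1, WT replicate 2 or Setdb1 KO replicate 1 was left out, with 0%, 0% and 0.508% of all features called. It was 3 without UNC0642 replicate 1 (1.18% of features), Setdb1 KO replicate 2 (0.8%) or UNC0642-treated Setdb1 KO replicate 1 (0.969%), and 2 without UNC0642 replicate 2 (1.16%) or UNC0642-treated Setdb1 KO replicate 2 (0.886%).

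With both treatments all 6 members were higher than in WT mESCs. Log2 fold changes were 5.53 (SE 0.77, adjusted p = 0.00700) for L1Md_Gf, 5.39 (SE 0.91, adjusted p = 0.0134) for L1Md_T and 4.80 (SE 0.78, adjusted p = 0.0116) for L1Md_A. The F types followed with 3.57 (SE 0.67, adjusted p = 0.0202) for L1Md_F, 3.41 (SE 0.66, adjusted p = 0.0232) for L1Md_F3 and 3.15 (SE 0.72, adjusted p = 0.0450) for L1Md_F2, all from edgeR's quasi-likelihood test, which called 3.6% of all features. The block called the same 6 members (9.47% of features), as did DESeq2 with all 8 libraries (6.62%), and both libraries of each exceeded both WT libraries, as for 22.3% of features. Among 932 repeat subfamilies tested, L1Md_Gf ranked 9 and L1Md_T 11 by log2 fold change, L1Md_A 25 and L1Md_F2 99. Left out in turn, WT replicate 1 and WT replicate 2 each brought the number called to 0, where 0% and 0.325% of all features remained called, and without UNC0642-treated Setdb1 KO replicate 1 it was 3 (L1Md_A, L1Md_Gf and L1Md_T, with 2.2% of features).

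**Figure D3:**
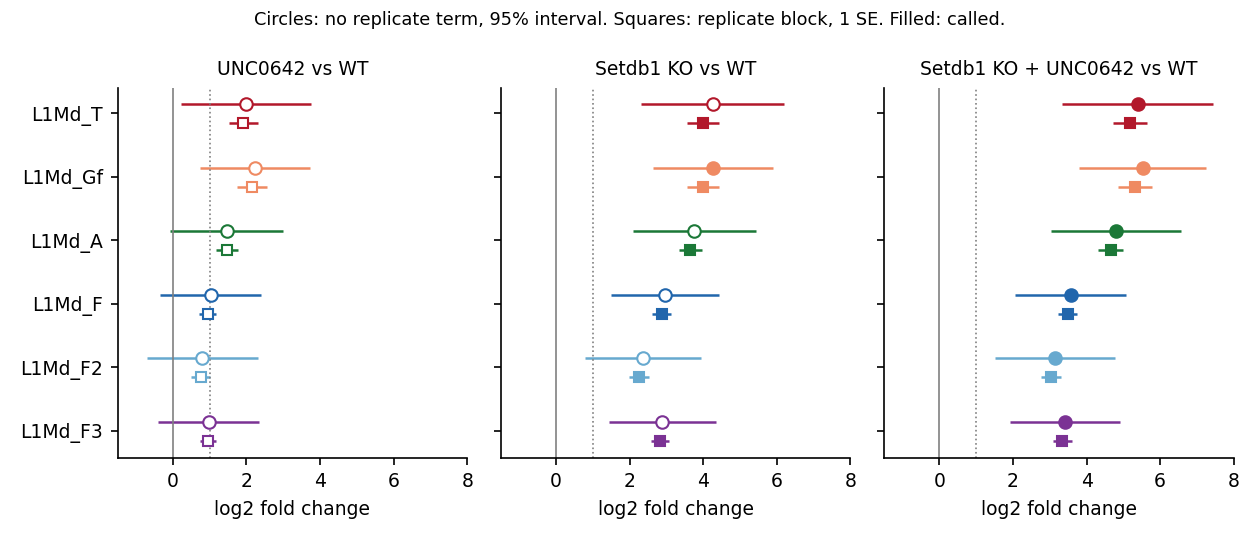
Log2 fold change against WT mESCs of each L1Md subfamily in 3 comparisons. Circles with 95% intervals are from the fit without a replicate term, squares with 1 SE from the fit that adds the replicate number as a block, and filled symbols were called. No symbol is filled for UNC0642 alone, 1 circle and 6 squares for Setdb1 KO, and all for both treatments, where L1Md_Gf and L1Md_T lie farthest right.

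By the ratio of mean shares to WT mESCs the order of the members was L1Md_Gf, L1Md_T, L1Md_A, L1Md_F, L1Md_F3 and L1Md_F2 in each of the 3 treated conditions, which share the same WT libraries. Other comparisons were ordered differently: L1Md_T came first with both treatments against UNC0642, L1Md_A in Setdb1 KO mESCs against UNC0642, and with both treatments against Setdb1 KO mESCs L1Md_F2 came before L1Md_F and L1Md_F3. Within replicate 2 of Setdb1 KO mESCs, too, L1Md_A (10.2-fold) came first, before L1Md_T (9.02-fold) and L1Md_Gf (8.87-fold). Neighbours in the order against WT mESCs were within 1 SE of each other, apart from L1Md_A, which lay more than 1 SE from L1Md_F in Setdb1 KO mESCs with and without UNC0642. No test of the difference between members was run.

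UNC0642-treated Setdb1 KO mESCs were next compared with Setdb1 KO mESCs. By the labels, 4-OHT was given for 2 days before UNC0642 in the former and for 5 days in the latter. The inhibitor and the length of 4-OHT treatment therefore cannot be told apart here, in the average UNC0642 effect or in the interaction. L1Md_T had 1.89 times and 2.51 times the share of the untreated Setdb1 KO mESCs in replicates 1 and 2, and L1Md_Gf 2.05 and 2.80 times. L1Md_F3 had the smallest ratios, 1.31 and 1.38. Log2 fold changes ran from 0.52 (95% interval -0.84 to 1.89) for L1Md_F3 to 1.27 (-0.18 to 2.71) for L1Md_Gf, and edgeR's quasi-likelihood test called 0 members (0% of features), with 0 at an unadjusted p under 0.05. DESeq2 also called 0, with all 8 libraries (0.56% of features) or only 4 (0.684%). With the replicate block (0.123% of features called) the smallest adjusted p was 0.235. All 6 log2 fold changes were positive, as were those of 583 of 932 repeat subfamilies and 7910 of 16245 features. The members were measured in the same libraries, which could not separate the difference from the spread.

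UNC0642-treated Setdb1 KO mESCs were then set against mESCs given UNC0642 alone, which gave log2 fold changes between 2.35 (L1Md_F2) and 3.40 (L1Md_T). Here edgeR's quasi-likelihood test called 0 members without a replicate term (1.13% of features, all 6 at an unadjusted p under 0.05, smallest adjusted p = 0.0654) and all 6 with the block (3.79% of features), and DESeq2 called 6 with all 8 libraries (3.21%) or only 4 (3.23%). Left out in turn, Setdb1 KO replicate 1 (0.897% of features) and Setdb1 KO replicate 2 (0.954%) each gave 1 call, of L1Md_Gf. Between the single treatments, Setdb1 KO mESCs were higher than UNC0642-treated mESCs by a log2 fold change of 1.58 (L1Md_F2) to 2.29 (L1Md_A). This comparison also had 0 members called without a replicate term (0.529% of features, all 6 at an unadjusted p under 0.05), but 5 with the block (2.22% of features), where L1Md_Gf missed the threshold at adjusted p = 0.0520. DESeq2 called L1Md_A and L1Md_T there, with all 8 libraries (1.87% of features) or only 4 (1.79%).

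Averaged over both states of G9a/GLP, which uses all 8 libraries, Setdb1 deletion gave log2 fold changes of 3.83 (SE 0.60) for L1Md_T, 3.77 (SE 0.50) for L1Md_Gf and 3.55 (SE 0.52) for L1Md_A, and between 2.36 and 2.75 for the F types. All 6 members were called in edgeR's quasi-likelihood test (adjusted p from 0.00310 to 0.0297, 3.93% of features) and with the block (7.28% of features). The number was 3 without WT replicate 1 (1.8% of features) and 1 (L1Md_Gf) without WT replicate 2 (1.71%). The average effect of UNC0642 over both Setdb1 states was smaller, from 0.75 (SE 0.43) for L1Md_F3 to 1.76 (SE 0.46) for L1Md_Gf. For it edgeR's quasi-likelihood test called 0 members (0.265% of features, 3 at an unadjusted p under 0.05), the block called L1Md_A, L1Md_Gf and L1Md_T (1.53% of features, adjusted p = 0.0247, 0.0228 and 0.0333), and DESeq2 called L1Md_Gf (1.72%).

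The interaction asks whether UNC0642 acted differently after Setdb1 deletion. It lay between -0.98 (95% interval -3.00 to 1.04) for L1Md_Gf and -0.03 (-2.14 to 2.09) for L1Md_F2 on the log2 scale. None was called in edgeR's quasi-likelihood test (0 features called higher and 0 lower, 0 members at an unadjusted p under 0.05) or with the block (0 features higher and 0 lower). DESeq2 called no member either, with 0 of 16245 features called higher and 1 lower. The sign of the interaction changed for all 6 members when Setdb1 KO replicate 1 was left out, from 0.13 for L1Md_Gf to 0.80 for L1Md_F2, and the intervals include differences of more than 2-fold either way.

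On the scale of these tests, the gap between replicates had the same direction throughout but differed in size between conditions. The replicate block allows only for a gap common to all conditions. In log2 TMM-normalized CPM, replicate 1 exceeded replicate 2 in every condition for every member, by 0.0021 to 0.76 in WT mESCs, 0.56 to 1.13 with UNC0642, 1.19 to 1.83 in Setdb1 KO mESCs and 1.13 to 1.54 with both. The median over all tested repeat subfamilies was 0.55, 0.65, 0.79 and 0.63 in the same order. Hence the excess of replicate 1 in the Setdb1 KO conditions was larger for every L1Md subfamily than for the median repeat. The largest gaps were those of L1Md_T (1.83) and L1Md_Gf (1.74) in Setdb1 KO mESCs.

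**Figure D4:**
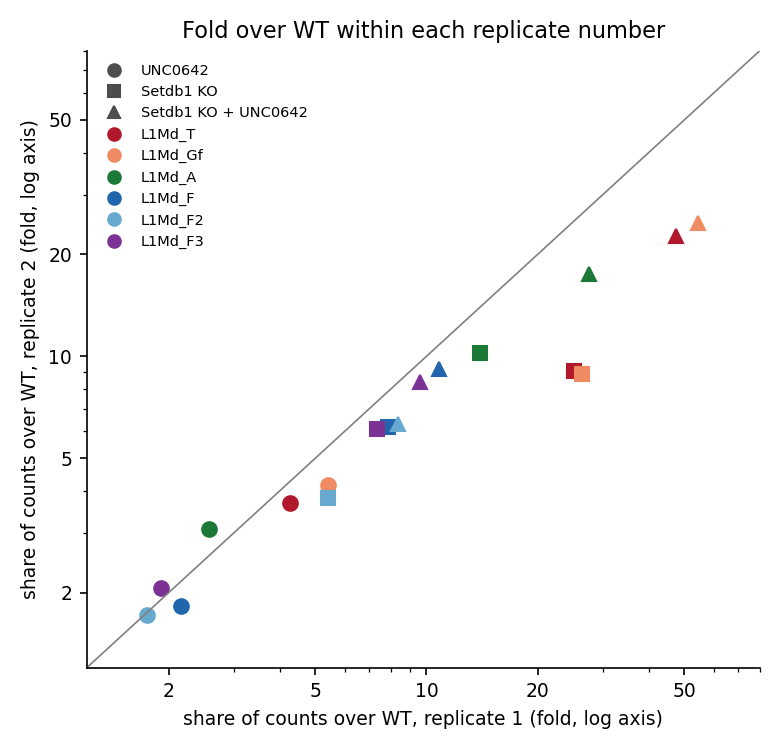
Fold of the share of all counts over WT mESCs within replicate 1 (horizontal, log axis) against replicate 2 (vertical, log axis). Colours are subfamilies, symbols are conditions, and the line marks equality. Setdb1 KO points of L1Md_T (25.1 and 9.02) and L1Md_Gf (26.5 and 8.87) lie farthest below the line.

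As a group, older L1 subfamilies moved less, though some of them moved as far as F-type members. Of 127, 121 passed the filter. Their median log2 fold change was 0.40 with UNC0642, 0.87 in Setdb1 KO mESCs and 0.97 with both. For the 6 L1Md members it was 1.25, 3.36 and 4.18, and for all repeat subfamilies 0.35, 0.96 and 1.11. Older L1 medians differed by name. With both treatments they were 1.98 for 21 subfamilies starting Lx, 2.49 for 8 starting L1_M, 2.05 for 3 starting L1VL and 0.77 for 82 starting L1M. With both treatments 6 older L1 subfamilies were called (3.6% of features), among them Lx3_Mus (log2 fold change 3.97, SE 0.80, adjusted p = 0.0261) and L1_Mm (3.51, SE 0.76, adjusted p = 0.0363). Lx3_Mus thus lay above L1Md_F (3.57), and L1_Mm above L1Md_F3 (3.41) and L1Md_F2 (3.15). With UNC0642 alone Lx3_Mus (1.53, SE 0.72) lay above L1Md_A (1.46) and the F types, and below L1Md_T and L1Md_Gf. In Setdb1 KO mESCs 0 of 121 were called without a replicate term (1.11% of features, 28 at an unadjusted p under 0.05) and 37 with the block (3.77%). With both treatments the block called 47 of 121 (9.47%). Counts of L1Md per count of older L1 were 0.321 and 0.430 in WT mESCs, 0.702 and 0.890 with UNC0642, 2.02 and 1.48 in Setdb1 KO mESCs, and 2.98 and 2.39 with both, and the 4 conditions did not overlap. How often other ratios separate the conditions so was not counted. L1Md accounted for between 62.2% and 80.8% of the gain of the L1 share over WT mESCs of the same replicate number, and for between 11.5% and 28.8% of the gain of all repeats.

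IAP elements, endogenous retroviruses that are a known target of SETDB1, showed another pattern. Their summed share was 1.00-fold and 1.09-fold of WT mESCs with UNC0642, where L1Md was about 3-fold. In Setdb1 KO mESCs it was 11.4-fold in replicate 1 and 24.9-fold in replicate 2, so replicate 2 was the higher for IAP and replicate 1 for L1Md (15.9-fold and 7.54-fold). With both treatments it was 21.6-fold and 21.2-fold. SINE elements, which do not encode their own reverse transcriptase, stayed between 1.10-fold and 1.30-fold in all treated libraries, and 0 of 35 were called against WT mESCs in edgeR's quasi-likelihood test with or without the block (0 of 35 at an unadjusted p under 0.05 without it).

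**Figure D5:**
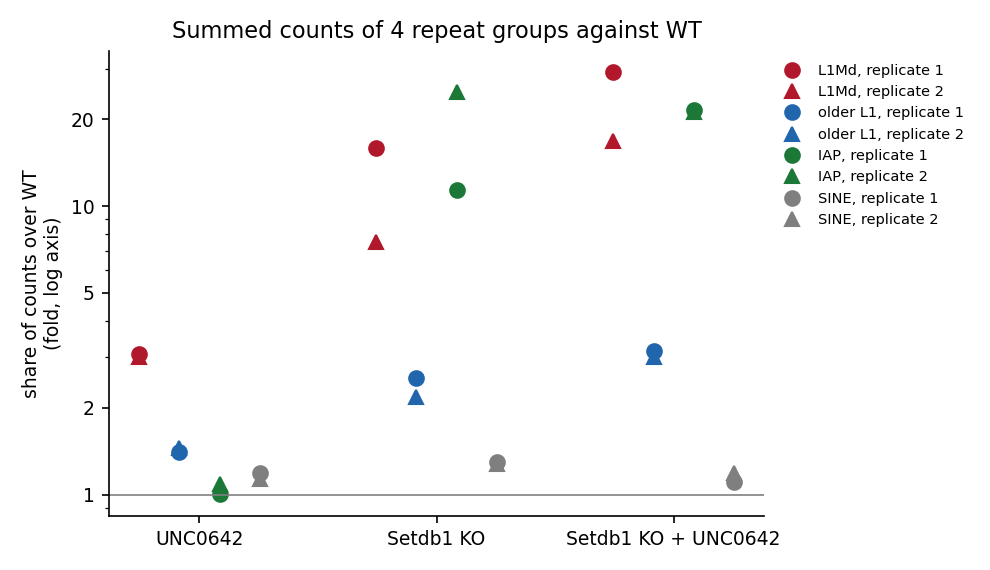
Summed share of all counts of L1Md, older L1, IAP and SINE relative to WT mESCs of the same replicate number (fold, log axis) in the 3 treated conditions. Circles are replicate 1 and triangles replicate 2. L1Md stands near 3-fold with UNC0642 while IAP stays near 1-fold, and in Setdb1 KO mESCs the replicates of L1Md and IAP are in opposite order.

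Several features followed the summed L1Md counts over the 8 libraries. Ranked by Pearson's r of log2 TMM-normalized CPM, the repeat subfamilies closest to it were ERVB4_2-I_MM-int (r = 0.989), RLTR43C (0.989), ORR1A3-int (0.987), RMER1A (0.986) and RLTR1D (0.986), and the genes were Olfr613 (0.999), Vmn1r58 (0.998), A130077B15Rik (0.998), Zfp488 (0.997) and Gm17644 (0.995). All points share library and depth, and the 8 libraries fall into 4 conditions, so these values only describe likeness. Zfp488 (GRCm38 chromosome 14, 33967070 to 33978764, minus strand) was at 650 and 1482 counts in WT mESCs, 4761 and 4256 with UNC0642, 31239 and 7701 in Setdb1 KO mESCs, and 27900 and 34725 with both. Olfr613, an olfactory receptor gene (GRCm38 chromosome 7, 103548074 to 103555506, plus strand), had 220 and 431, 1433 and 1185, 11698 and 2751, and 9316 and 10235 counts in the same order. In both genes replicate 1 of Setdb1 KO mESCs had more counts than replicate 2, as in L1Md_T. These are raw counts, and the libraries of these replicates held 26807807 and 16416611 counts in all, so part of the gap is depth. Whether reads from L1 copies inside or next to these genes were counted to them was not tested.

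Genes that act on L1 were examined by list. For the HUSH complex and its partners, 14 of 16 listed genes were found and 0 were called in any of the 3 comparisons with WT mESCs by edgeR's quasi-likelihood test (0, 2 and 2 at an unadjusted p under 0.05 with UNC0642, in Setdb1 KO mESCs and with both). The same held for 11 H3K9 methyltransferases and demethylases (1, 1 and 2), 10 of 11 DNA methylation genes (0, 1 and 0), 18 L1 restriction and RNA factors (0, 1 and 2) and 4 L1 transcription factors (0, 0 and 0). Ehmt2 and Ehmt1, which encode the UNC0642 targets G9a and GLP, had log2 fold changes of -0.79 (SE 0.47) and -0.32 (SE 0.36) with UNC0642. Suv39h1 and Suv39h2, encoding other H3K9 methyltransferases, lay between -0.15 and 0.21 in the 3 comparisons.

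The replicate block changed several of these calls (all from edgeR's quasi-likelihood test). Atf7ip, whose product is a partner of SETDB1, was called higher in Setdb1 KO mESCs (log2 fold change 1.43, adjusted p = 0.0339) and with both treatments (1.31, adjusted p = 0.0223), and its paralog Atf7ip2 with both (1.44, adjusted p = 0.0132). Setdb1 itself was lower in the 2 conditions. The demethylase gene Kdm4d was called higher in Setdb1 KO mESCs (3.59, adjusted p = 0.0481) and with both treatments (3.41, adjusted p = 0.0263). With both, Kdm4b (-1.46, adjusted p = 0.00930) and Ehmt2 (-1.20, adjusted p = 0.0235) were called lower. Of the L1 restriction and RNA factors, with both treatments Apobec3, Samhd1 and Mov10 were called lower (-1.39, -1.18 and -1.01) and Zc3hav1 higher (1.196). No other gene of these lists was called with the block. It called 0.166%, 3.77% and 9.47% of features higher with UNC0642, in Setdb1 KO mESCs and with both. In the same order, 0, 79 and 1046 of 16245 features were called lower.

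Of 15 piRNA pathway genes, which silence L1 in the germline, 2 were called higher in Setdb1 KO mESCs (1.11% of features) and 4 with both treatments (3.6%). Mael rose by a log2 fold change of 3.52 (SE 0.41, adjusted p = 0.00972) in Setdb1 KO mESCs and 2.62 (SE 0.40, adjusted p = 0.00894) with both. Mov10l1 rose by 3.18 (SE 0.40, adjusted p = 0.0108) and 2.23 (SE 0.39, adjusted p = 0.0151). Gtsf1 and Asz1 rose with both treatments, by 3.91 (SE 0.56, adjusted p = 0.00703) and 5.35 (SE 0.82, adjusted p = 0.00899). With the block, 6 were called higher in Setdb1 KO mESCs (3.77% of features) and 8 with both (9.47%). In Setdb1 KO mESCs 1 was called lower, as were 79 of 16245 features. Those added were Ddx4 and Tdrd12 in the 2 comparisons, Piwil2 and Gtsf1 in Setdb1 KO mESCs, Tdrd9 and Tex19.1 with both, and Piwil4, lower in Setdb1 KO mESCs (-2.35, adjusted p = 0.0426). For Mael and Mov10l1 replicate 2 exceeded replicate 1 in Setdb1 KO mESCs, unlike L1Md (for Mael, 56.5 and 86.0 CPM).

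Some markers of other cell states also differed between the conditions, though their sums were not in the order of L1Md. The 9 two-cell-like markers, such as Zscan4c and Zscan4d, summed to 8.89 and 30.0 CPM in WT mESCs, 743 and 323 CPM with UNC0642, 328 and 168 CPM in Setdb1 KO mESCs, and 1161 and 624 CPM with both, and 0, 1 and 8 of 9 were called higher (8, 9 and 8 at an unadjusted p under 0.05), against 0%, 1.11% and 3.6% of all features. Unlike L1Md, their sum was higher with UNC0642 than in Setdb1 KO mESCs in each replicate. Not every marker followed the sum: 1 of 9 had a positive log2 fold change (1.19) in Setdb1 KO mESCs against UNC0642. Germ cell markers summed to 94.0 and 68.5, 93.8 and 88.0, 579 and 650, and 425 and 785 CPM, with 0, 3 and 4 of 5 called, and with UNC0642 their sum lay within the WT range. Primed markers summed to 70.5 and 44.8, 74.7 and 38.6, 299.7 and 276, and 119 and 168 CPM (0, 0 and 1 of 5 called). Their sum was lower with both treatments than in Setdb1 KO mESCs, but in that comparison 2 of 5 had a positive log2 fold change and the median was -0.10. With the block, 2, 8 and 9 two-cell-like, 0, 4 and 5 germ cell and 0, 2 and 2 primed markers were called higher, against 0.166%, 3.77% and 9.47% of features. The same quasi-likelihood fit called the trophectoderm marker Eomes lower with both (-1.77, adjusted p = 0.0347), as it did 1046 of 16245 features. Primitive endoderm, trophectoderm and fibroblast markers had 0 called without the block (1 at an unadjusted p under 0.05, an endoderm marker with UNC0642), at summed levels between 3.43 and 94.5 CPM, and no list had a marker at 0 in all libraries. The part of such cells in the L1Md differences was not tested.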

How the data were processed

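Reads of 8 poly(A) libraries were trimmed (Trim Galore 0.3.7), mapped to mm10 with TopHat2 and counted with TEtranscripts by the authors, who deposited raw counts per gene and repeat subfamily without normalization. Multi-mapped reads are shared among positions, which for young L1 copies divides reads between near-identical subfamilies, and no strand is stated. No row lacked a name.

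Samples were grouped by label. The study's methods give 5 days of 4-OHT, and the combined condition is labelled with 2. Members and gene lists were chosen with earlier results of these data known. All L1Md subfamilies are named, as are the fixed H3K9 enzymes and listed pathway genes called in a comparison with WT. Likeness names the 5 repeats and genes with the highest r. Marker lists are described by counts and sums.

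Counts of 24062 genes and 1153 subfamilies were filtered with filterByExpr (minimum count 10, total 15), leaving 15313 and 932. TMM factors (0.810 to 1.20) were applied, and edgeR 4.0.16 (R 4.3.3) fitted a quasi-likelihood model to all 8 libraries with 1 coefficient per condition. P-values were adjusted by Benjamini-Hochberg over all 16245 features within a comparison. A call needed an adjusted p under 0.05 together with more than a 2-fold change. The SE is the log2 fold change divided by the root of F. Alternatives used DESeq2 1.42.0, other scalings, filters and fewer libraries. Tables and plots used Python 3.11.15 with pandas 2.3.3 and matplotlib 3.10.9. Features with 3 counts in a library were at the detection floor (0.112 to 0.256 CPM), and no member was near it.

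All conditions share replicate numbers 1 and 2. No source states that a number marks a shared batch, so the pairing comes from the data: deviations of same-numbered libraries correlated at r between 0.351 and 0.706 over genes and between 0.296 and 0.523 over repeats in the 6 pairs of conditions. Values with the replicate number as a block are therefore given beside those without it where they change the count of a comparison or list described. Since the block was chosen from the same libraries that it was fitted to, its p-values may be too small.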

Additional observations from a re-analysis of the deposited data

How the results depend on the processing

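The counts of members called with both treatments against WT (6), for the average Setdb1 effect (6), for UNC0642 in Setdb1 KO mESCs (0) and for the interaction (0) were the same under every alternative run with all libraries of the comparison. For Setdb1 KO against WT the number of 1 became 6 with the replicate block, 6 with DESeq2 (8 or 4 libraries), 5 with edgeR on 4 libraries, 3 with scaling to total counts and 5 without an expression filter. For UNC0642 against WT it went from 0 to 2 with DESeq2 on 4 libraries. Both treatments against UNC0642 went from 0 to 6 with the replicate block, 6 with DESeq2 (8 or 4 libraries) and 3 without a filter. Setdb1 KO against UNC0642 went from 0 to 5 with the block and 2 with DESeq2 (8 or 4 libraries), and the average UNC0642 effect from 0 to 3 with the block and 1 with DESeq2. The block changed no other count of L1Md members called, and in each case the cause was not tested. Scaling to total counts shifted the median feature by -0.17 in the comparison of both treatments with WT.

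Leaving out 1 library at a time, with a lone library assumed to vary like the other conditions, gave 0 to 3 members for Setdb1 KO against WT, 0 to 6 for both treatments against WT, 0 to 1 for both treatments against UNC0642 and 1 to 6 for the average Setdb1 effect. Signs turned only in results that were not called. With all libraries, the interaction of L1Md_F2 (-0.03) turned to 0.024 with the block, 0.0358 with DESeq2, 0.0358 with RLE scaling and 0.00601 after thinning to the smallest library. Without 1 library the interaction ranged from -1.40 to 0.37 (L1Md_A), -0.83 to 0.80 (L1Md_F2), -1.15 to 0.26 (L1Md_F3), -1.11 to 0.30 (L1Md_F), -1.80 to 0.13 (L1Md_Gf) and -1.77 to 0.32 (L1Md_T). The change with UNC0642 in Setdb1 KO mESCs ranged from -0.030 to 1.61 (L1Md_F2), -0.17 to 1.24 (L1Md_F3) and -0.073 to 1.34 (L1Md_F), negative only without UNC0642-treated Setdb1 KO replicate 1.

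The denominator set the size of the summed share, since other repeats and L1 also gained counts. Against WT it was 3.04-fold with UNC0642, 12.1-fold in Setdb1 KO mESCs and 23.6-fold with both as a share of all counts. As a share of repeat counts it was 2.098-fold, 3.58-fold and 5.14-fold, and as a share of L1 counts 1.63-fold, 2.33-fold and 2.68-fold. With 2 replicates per condition, the gap between replicates and not sequencing depth limits these values.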
